A study of Mus musculus with 18 samples.

Results

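The MHC class II machinery was followed in bulk RNA-seq of sorted endothelial cells (ECs) from the mouse mammary fat pad and from mouse breast tumours. The 7 genes were chosen by symbol, out of 16248 genes in the expression table: Cd74, H2-Aa, H2-Ab1, H2-Eb1, H2-DMa, H2-DMb1 and Ciita. All 7 were far higher in ECs of implanted tumours than in ECs of the normal fat pad or of spontaneous MMTV-PyMT tumours. In each of the 7 the 6 libraries from implanted tumours lay above all 12 other libraries. The share of all genes that separate in this way was not counted, so how unusual it is remains unknown. Of the 7, Ciita alone passed the test for a change with cGAMP, and it did so in implanted tumours, where its mean level rose 1.98-fold.

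The 18 libraries formed 6 groups of 3, all from FVB mice whose fat pad or tumour was injected with PBS or with cGAMP, the cyclic dinucleotide that activates STING, and was harvested 3 h later. Normal ECs were those of the fat pad of wild-type mice without a tumour, and their 6 columns in the table, which name a treatment but no tissue, were assigned to this tissue because all other columns name a tumour. MMTV-PyMT ECs came from breast tumours that arise spontaneously in mice carrying the polyoma middle T antigen under the MMTV promoter, which is active mainly in the mammary epithelium and not targeted to ECs. Implanted ECs came from tumours grown in the fat pad of wild-type FVB mice from cultured MMTV-PyMT tumour cells, so the ECs and leukocytes were those of an immunocompetent host. The study's methods describe the hosts of implanted tumours and the MMTV-PyMT mice as young adult females, and the labels give no age. The implanted and spontaneous tumours differed in host genotype, in the origin of the tumour and in time of growth, which cannot be told apart. In every group, cells were enriched on CD31 beads and sorted as live (Sytox Green-), CD45- and CD31+ cells, so that leukocytes, which bear CD45, were gated out.

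MHC class II molecules are pairs of an alpha and a beta chain that display peptides from endocytosed proteins to CD4+ T cells. In the mouse they are I-A (H2-Aa with H2-Ab1) and I-E (whose beta chain is H2-Eb1), and in some mouse haplotypes no I-E reaches the surface because the alpha chain is not made. The invariant chain Cd74 holds new class II pairs together and takes them to endosomes, where cathepsin S trims it, and H2-DM, a pair of H2-DMa and H2-DMb1, exchanges its last fragment for peptide. The genes are switched on together by the coactivator Ciita, which binds no DNA itself and joins the RFX, CREB and NF-Y proteins that sit on the X and Y boxes of their promoters. Dendritic cells, macrophages and B cells make class II constitutively, and ECs can make it when interferon-γ induces Ciita.

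All 7 are annotated as protein-coding (GENCODE M21 on mm10), and all but Cd74 and Ciita lie in the same region. H2-DMa (chr17:34119541-34139101, + strand), H2-DMb1 (chr17:34153072-34160230, +), H2-Ab1 (chr17:34257689-34269419, +), H2-Aa (chr17:34282744-34287823, −) and H2-Eb1 (chr17:34305867-34316674, +) lie in the MHC on chromosome 17, with the widest gap between H2-DMb1 and H2-Ab1. Ciita lies on chromosome 16 (10480059 to 10528418, +). The exons of H2-DMa share 360 bases with Brd2 and those of Ciita share 329 bases with Dexi, each on the opposite strand. The counting step's use of strand was not stated, so reads from these shared stretches cannot be told apart.

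The promoters of H2-Aa and H2-Eb1 are shown because they hold the pair of boxes through which Ciita acts, in the same order and at nearly the same distance. Both are reference sequence (RefSeq, GRCm38.p6) read along the gene's own strand from chr17:34287857-34287937 for H2-Aa and chr17:34305743-34305822 for H2-Eb1, with the X-like and then the Y-like match in capitals:
H2-Aa: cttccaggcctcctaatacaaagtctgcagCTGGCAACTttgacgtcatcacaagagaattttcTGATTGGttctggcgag
H2-Eb1: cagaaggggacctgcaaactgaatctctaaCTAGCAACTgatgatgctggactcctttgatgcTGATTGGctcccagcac
The bases between the boxes numbered 25 in H2-Aa and 24 in H2-Eb1, and 25 in H2-DMb1, whose stretch is not printed. The letters searched, CTNGNAACT for the X-like and TGATTGG for the Y-like match, were chosen after these sequences had been seen, on both strands of a window from 250 bases before to 50 bases after each start. The X-like letters occurred in 4.1% and the Y-like letters in 7.82% of 32851 such windows, whereas an X-like match followed by a Y-like match with starts 20 to 45 bases apart occurred in only 5 windows (0.0152%), 3 of them those of H2-DMb1, H2-Aa and H2-Eb1. The windows of H2-DMa held neither, and none of the windows searched for H2-DMa, H2-DMb1, H2-Aa and H2-Eb1 held the interferon-γ-type letters TTCNNNGAA, which were present in 8.3% of all windows. The promoters of Cd74, H2-Ab1 and Ciita were not analysed here. These are matches of letters and not measured binding.

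The libraries held 8975947 to 11923097 gene-assigned reads, as recovered from the FPKM values, a 1.33-fold spread. Endothelial transcripts were high in all 18 (Cdh5 from 265 to 782 FPKM, Pecam1 from 138 to 386 FPKM), and the epithelial transcript Epcam was also present in all (54.2 to 215 FPKM). Ptprc, which encodes CD45 itself, ranged from 0.156 to 9.73 FPKM. It stood highest in 1 library of each of 2 groups, normal cGAMP 1 at 9.73 FPKM and implanted cGAMP 2 at 9.24 FPKM, and results that rest on these libraries are given with and without them.

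Cd74 (chr18:60803848-60812652, + strand, mm10) was the most abundant of the 7 in every library. In implanted tumours it stood at 545, 409 and 629 FPKM after PBS and at 1060, 1155 and 552 FPKM after cGAMP. In the normal fat pad the values were 52.3, 33.1 and 86.9 FPKM after PBS and 131, 23.4 and 24.8 FPKM after cGAMP. In MMTV-PyMT tumours they were 24.3, 33.5 and 29.9 FPKM after PBS and 29.2, 22.0 and 19.1 FPKM after cGAMP. The lowest implanted library was thus 3.12 times the highest of all others, and the highest of the others was the normal library with the most Ptprc.

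The I-A chains followed at a lower level. H2-Aa, the alpha chain, was at 72.9, 54.4 and 92.0 FPKM in implanted tumours after PBS and at 120, 224 and 74.3 FPKM after cGAMP. In the normal fat pad it was at 14.5, 8.66 and 22.7 FPKM after PBS and at 39.3, 5.43 and 5.26 FPKM after cGAMP, and in MMTV-PyMT tumours it ranged from 4.66 to 7.75 FPKM over the 6 libraries. Its margin was the narrowest of the 7, the lowest implanted library being 1.39 times the highest other library. H2-Ab1, the beta chain, was at 84.4, 66.6 and 105 FPKM in implanted tumours after PBS and at 150 (149.8), 253 and 93.3 FPKM after cGAMP. Normal ECs held 9.17, 6.57 and 15.3 FPKM of H2-Ab1 after PBS and 24.4, 3.91 and 5.16 FPKM after cGAMP, and MMTV-PyMT ECs held 3.92 to 6.90 FPKM. The highest H2-Aa and H2-Ab1 values of all 18 libraries were in implanted cGAMP 2, the implanted library with the most Ptprc.

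H2-Eb1, the I-E beta chain, was the scarcest. It reached 2.97, 2.09 and 2.97 FPKM in implanted tumours after PBS and 3.20, 3.73 and 1.93 FPKM after cGAMP, against 0.189 to 1.35 FPKM in the normal fat pad and 0.202 to 0.712 FPKM in MMTV-PyMT tumours. These values rest on 36 to 61 reads per implanted library and on 4 to 30 reads in each of the others, so that counting error alone was large outside the implanted tumours. Reads of these FVB mice were aligned to mm10, a reference of another strain. Reads lost to strain differences in the class II genes were not measured, so the levels of these genes against one another are uncertain to that extent.

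Both chains of H2-DM, the peptide exchanger, were also highest in implanted tumours, at a far lower level than I-A. H2-DMa was at 7.39, 7.21 and 8.57 FPKM in implanted tumours after PBS and at 12.5, 14.0 and 7.77 FPKM after cGAMP, and it ranged from 0.902 to 2.81 FPKM in the normal fat pad and from 0.753 to 1.12 FPKM in MMTV-PyMT tumours. H2-DMb1 was at 8.85, 9.47 and 9.87 FPKM in implanted tumours after PBS and at 16.4, 14.8 and 9.46 FPKM after cGAMP. In MMTV-PyMT tumours H2-DMb1 was at 1.43, 2.25 and 1.59 FPKM after PBS and at 1.10, 0.297 and 1.14 FPKM after cGAMP, 2 sets that did not overlap. In the normal fat pad it stayed between 0.853 and 1.54 FPKM, a 1.80-fold range, while Cd74 spanned a 5.58-fold range over the same 6 libraries. H2-DMb1 had the widest gap of the 7, with the lowest implanted library at 3.93 times the highest other. H2-DMb1 has a close copy, H2-DMb2, beside it, and how reads that match both were divided was not stated, so its level is uncertain to that extent. H2-DMb2 did not share the wide gap: it was at 3.98 ± 0.680 FPKM in implanted, 2.36 ± 1.31 FPKM in normal and 0.562 ± 0.272 FPKM in MMTV-PyMT libraries after PBS (SD, n = 3).

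Ciita, the coactivator, was at 4.75, 3.03 and 3.94 FPKM in implanted tumours after PBS and at 9.04, 6.30 and 7.87 FPKM after cGAMP. In the normal fat pad it was at 0.799, 0.601 and 0.997 FPKM after PBS and at 2.10, 0.466 and 0.627 FPKM after cGAMP, the highest again being the library with the most Ptprc. In MMTV-PyMT tumours Ciita lay between 0.590 and 0.746 FPKM in all 6 libraries, and the PBS and cGAMP values overlapped.

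**Figure D1:**
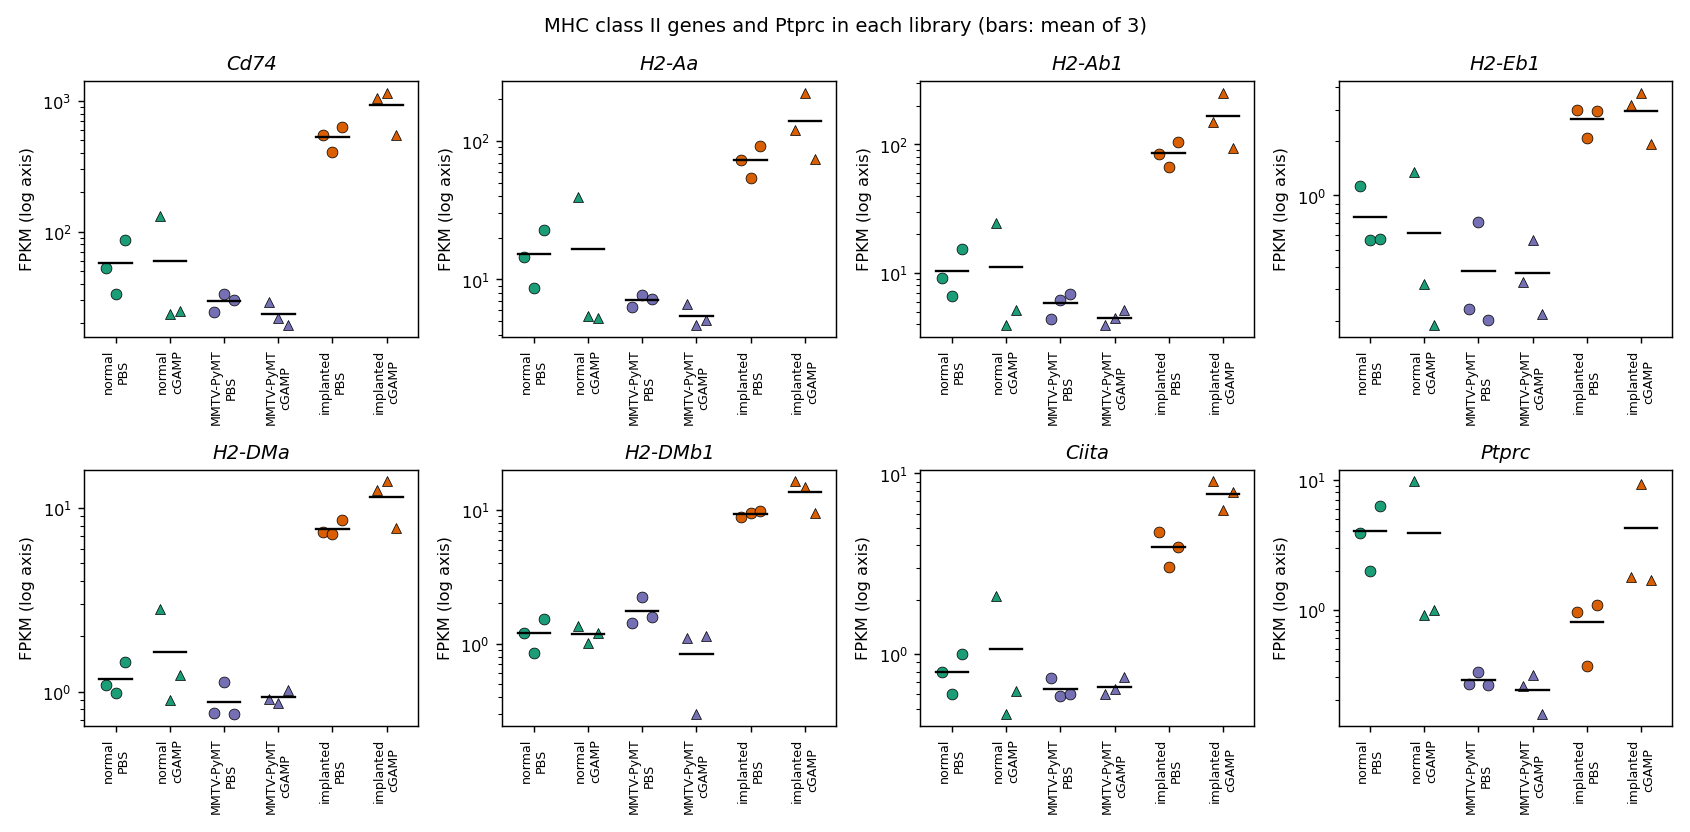
FPKM on a log axis of the 7 class II genes and of Ptprc in each of the 18 libraries, with circles for PBS, triangles for cGAMP and bars for the mean of 3 libraries. In each class II panel the 6 orange implanted points lie above the 12 others, while in the Ptprc panel the tissues overlap and normal cGAMP 1 (9.73 FPKM) and implanted cGAMP 2 (9.24 FPKM) stand highest.

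The first comparison asked how ECs of implanted tumours differed from ECs of the normal fat pad after PBS. All 7 genes were higher (limma on log2(FPKM + 1), Benjamini-Hochberg adjustment over 13983 genes, adjusted p below 0.05), where 25.0% of all tested genes were higher (48.7% differed in either direction, 23.6% lower), and their median log2 difference was 2.25 against 0.01 over all tested genes. H2-Eb1 and Ciita reached the filter of 1 FPKM in at least 3 libraries chiefly through the implanted libraries (H2-Eb1 in 2 and Ciita in 1 of the 12 others), and they are therefore no independent support for the count. Mean Cd74 was 528 ± 111 FPKM in implanted and 57.4 ± 27.2 FPKM in normal ECs (SD, n = 3), a 9.19-fold ratio of means and a log2 difference of 3.26 ± 0.50 (SE, limma adjusted p = 5.95e-05). H2-Ab1 was 8.26-fold higher (log2 2.98 ± 0.48, adjusted p = 9.08e-05) and its partner H2-Aa 4.78-fold (log2 2.25 ± 0.56, adjusted p = 0.00323). The smallest errors belonged to the H2-DM chains, whose replicates lay close together: H2-DMb1 was 7.83-fold higher (log2 2.25 ± 0.20, adjusted p = 2.2e-07) and H2-DMa 6.61-fold higher (log2 2.01 ± 0.22, adjusted p = 1.63e-06). Ciita was 4.89-fold higher (log2 1.44 ± 0.22, adjusted p = 4.84e-05) and H2-Eb1 3.54-fold higher (log2 1.07 ± 0.24, adjusted p = 0.00169). On the log2(FPKM + 1) scale the change of low genes such as H2-Eb1 and Ciita is understated. Brd2, which shares exon bases with H2-DMa, differed by 0.19 (adjusted p = 0.126), and Dexi, which shares bases with Ciita, by 0.95 (adjusted p = 2.31e-06), with Dexi levels of 4.33 to 5.79 FPKM in implanted and 2.15 to 4.44 FPKM in all other libraries.

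Against ECs of MMTV-PyMT tumours after PBS, the implanted ECs were again higher in all 7 genes, where 20.8% of all tested genes were higher and 24.6% lower (45.5% in either direction). The same exception applies to H2-Eb1 and Ciita. The difference was larger than against the normal fat pad for Cd74, at 18.1-fold (log2 4.12, adjusted p = 1.09e-05), for H2-Ab1, at 14.7-fold (log2 3.66, adjusted p = 2.16e-05), and for H2-Aa, at 10.3-fold (log2 3.17, adjusted p = 0.000286). Of the H2-DM chains, H2-DMa was 8.77-fold and H2-DMb1 5.34-fold higher, and Ciita was 6.08-fold higher. Brd2 differed by −0.12 (adjusted p = 0.328) and Dexi by 0.51 (adjusted p = 0.00119). The 2 tissue comparisons share the implanted PBS libraries and are not independent of each other.

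ECs of MMTV-PyMT tumours and of the normal fat pad did not differ past the threshold in any of the 7 genes after PBS, where 56.5% of all tested genes did (29.8% higher, 26.6% lower), and none of the 7 had an unadjusted p below 0.05. H2-Aa was at 7.09 ± 0.741 FPKM in MMTV-PyMT and 15.3 ± 7.06 FPKM in normal ECs (SD, n = 3), with the MMTV-PyMT libraries all below the normal ones and a log2 difference of −0.92 (adjusted p = 0.17). For Cd74 the log2 difference was −0.86, with a 95% interval from −1.92 to 0.21 (adjusted p = 0.158), and the groups overlapped. These calls rest on how the spread was estimated. Without normal cGAMP 1 and implanted cGAMP 2, neither of which belongs to either group but both of which enter the shared estimate, Cd74 (adjusted p = 0.0249), H2-Aa (0.00957) and H2-Ab1 (0.0349) were lower in MMTV-PyMT ECs, and Cd74 and H2-Aa also passed when only the groups compared were fitted (adjusted p = 0.0343 and 0.0186). Over all alternatives the adjusted p ran from 0.0249 to 0.455 for Cd74 and from 0.00957 to 0.432 for H2-Aa.

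**Figure D2:**
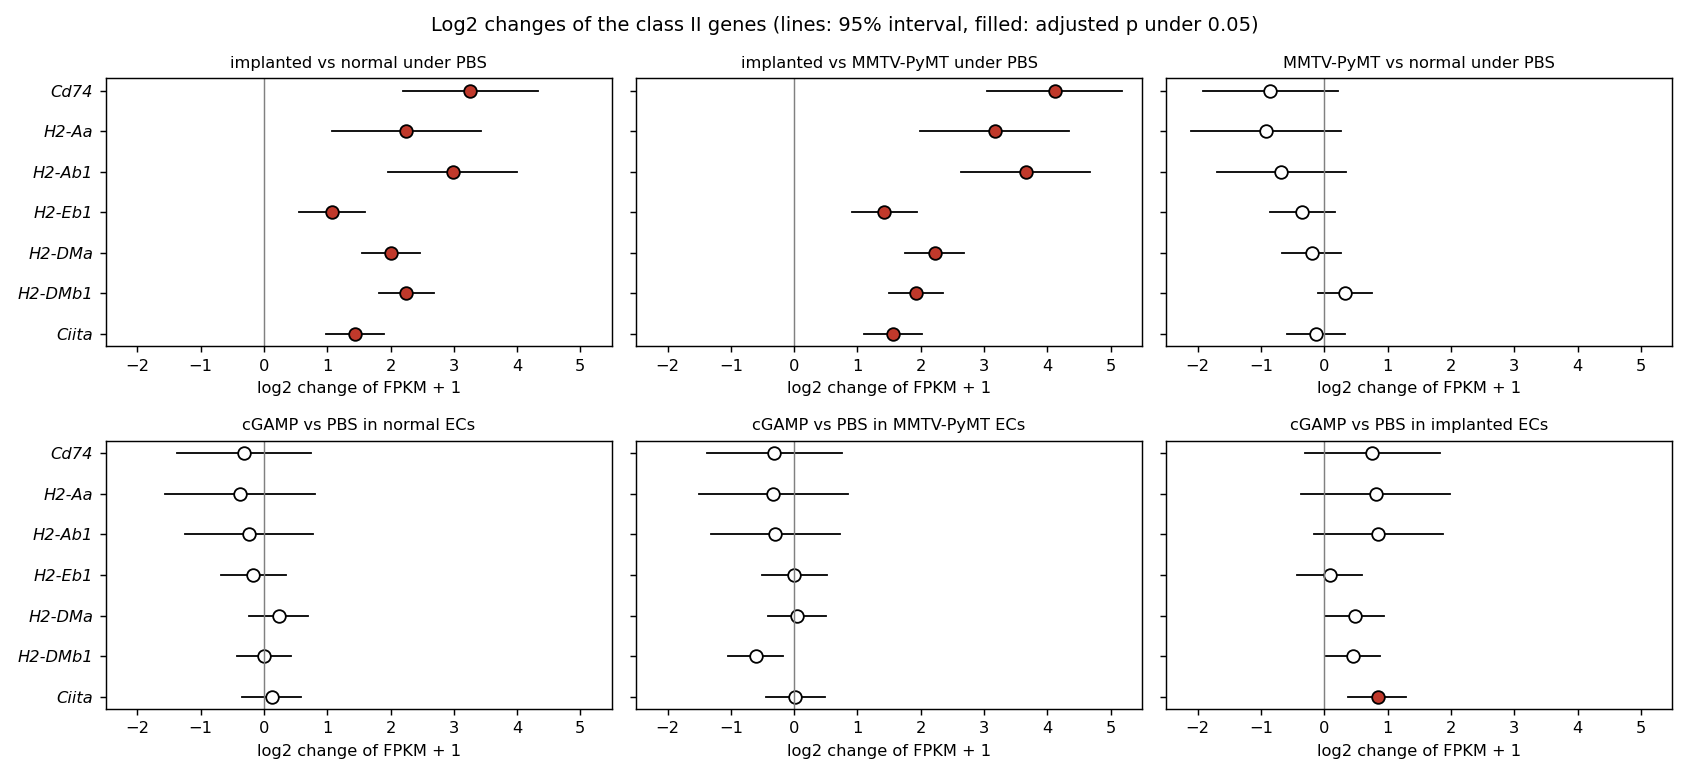
Difference in log2(FPKM + 1) of the 7 genes in 6 comparisons, with 95% intervals from limma and filled points for an adjusted p below 0.05. All 7 points are filled in the comparisons of implanted with normal and with MMTV-PyMT ECs (Cd74 at 3.26 and 4.12), none in MMTV-PyMT against normal, and only Ciita (0.84) among the cGAMP comparisons.

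The transcripts of leukocytes were set beside the class II genes, since leukocytes carry class II and can escape a CD45- gate. Ptprc went the other way from class II between implanted and normal ECs after PBS: it was at 0.964, 0.370 and 1.09 FPKM in implanted and at 3.91, 1.98 and 6.31 FPKM in normal libraries, a log2 difference of −1.42 (limma adjusted p = 0.0496). Against MMTV-PyMT ECs, where Ptprc was at 0.262 to 0.332 FPKM after PBS, the difference was 0.47 (adjusted p = 0.525), although all 3 implanted libraries lay above all 3 of MMTV-PyMT. Lyz2, a lysozyme of macrophages and neutrophils, was at 30.9, 19.4 and 49.6 FPKM in implanted, 24.9, 14.4 and 34.8 FPKM in normal and 11.6, 20.8 and 17.0 FPKM in MMTV-PyMT libraries after PBS. Lyz2 differed by 0.40 from normal (adjusted p = 0.545) and by 0.91 from MMTV-PyMT libraries (adjusted p = 0.159). Implanted ECs thus held 9.19-fold more Cd74 than normal ECs at a Ptprc level 0.199 times as high.

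Within each tissue the ratio of Cd74 to Ptprc took a separate range. It was 13.4 to 26.0 in the normal fat pad, 70.6 to 122 in MMTV-PyMT tumours and 125 to 1105 in implanted tumours, the lowest implanted value being that of the Ptprc-rich library implanted cGAMP 2. The ratio of Cd74 to Lyz2 was 7.61 to 27.7 in implanted tumours and 1.09 to 4.17 in the 12 other libraries. In the 6 normal libraries Cd74 and H2-Ab1 had exactly the same order as Ptprc. This is a description over 6 libraries that share cells and depth, and the part of leukocyte RNA in the normal class II level was not tested.

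**Figure D3:**
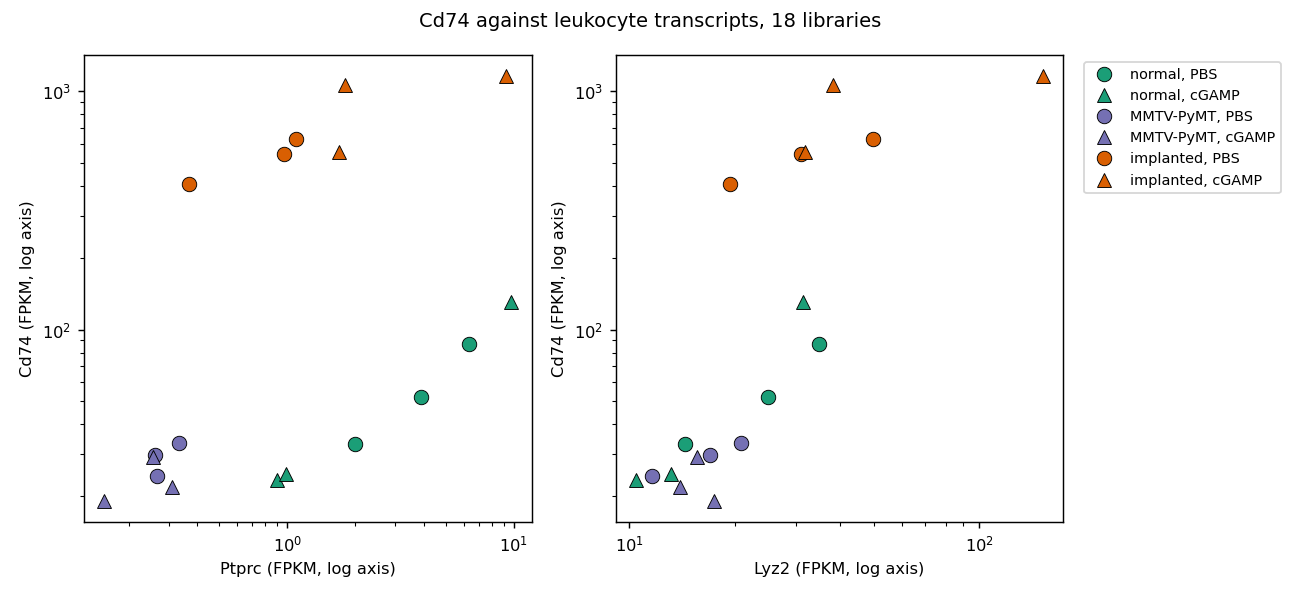
Cd74 against Ptprc and against Lyz2, in FPKM on log axes, with 1 point for each of the 18 libraries. The implanted libraries (409 to 1155 FPKM of Cd74) form a band above the others at the same Ptprc or Lyz2 level, and the normal libraries climb from lower left to upper right with Ptprc.

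Of 6 pan-leukocyte genes, none was higher in implanted than in normal ECs after PBS, where 25.0% of all tested genes were higher. Of the 6, 1 (Ptprc) was lower, where 23.6% of all tested genes were lower. None of the 6 passed against MMTV-PyMT ECs, where 20.8% of all tested genes were higher and 24.6% lower. Their summed level was 12.1 to 23.2 FPKM in implanted, 26.2 to 78.6 FPKM in normal and 7.63 to 11.3 FPKM in MMTV-PyMT libraries after PBS, while the sum of the 7 class II genes was 552 to 852, 51.4 to 130 (129.5) and 38.2 to 52.1 FPKM. The 10 macrophage and monocyte genes summed to 127 to 200 (199.6) FPKM in implanted, 77.8 to 106 FPKM in normal and 104 to 123 FPKM in MMTV-PyMT libraries. Like class II this sum was highest in implanted libraries, though by far less, and it was not lower in MMTV-PyMT than in normal libraries. Cd14, 1 of the 10, weighed most in this sum: it averaged 87.7 FPKM in implanted, 40.8 FPKM in normal and 68.8 FPKM in MMTV-PyMT libraries after PBS. The other genes did not all follow it. By their means, Lyz2, Csf1r, Adgre1, Cd68, Fcgr1 and Mrc1 were lower in MMTV-PyMT than in normal libraries, and C1qa, C1qb and C1qc were higher. The order of the sums is therefore no measure of macrophages apart from Cd14. Of these 10, Cd14 was higher and Mrc1 lower in implanted than in normal ECs, and Cd68 was higher than in MMTV-PyMT ECs. Of 4 dendritic cell genes tested, Itgax was higher (log2 1.11, adjusted p = 0.0223) and Ccr7 lower (−2.08) than in normal ECs, and Clec9a was higher than in MMTV-PyMT ECs. The B cell gene Cd79a was lower in implanted than in normal ECs (−1.62), and the 3 T and NK cell genes in the table summed to 1.53 to 3.43 FPKM in implanted, 4.55 to 14.1 FPKM in normal and 0.236 to 0.416 FPKM in MMTV-PyMT libraries. No value in the table was 0 for any gene, so markers at 0 could not be looked for, and Ms4a1 and Flt3 were not analysed here. These counts moved when normal cGAMP 1 and implanted cGAMP 2 were left out of the fit: 5 of the 6 pan-leukocyte genes were then lower in implanted than in normal ECs after PBS, and 2 (Cd53 and Coro1a) were higher than in MMTV-PyMT ECs. In that fit 3481 of 13983 tested genes were lower than in normal ECs, and 22.5% were higher than in MMTV-PyMT ECs. Against MMTV-PyMT ECs, Lyz2 (0.91, adjusted p = 0.029), Fcgr1 (0.67, adjusted p = 0.000473) and Itgax (0.89, adjusted p = 0.00266) were then higher as well, and Fcgr1 was also higher than in normal ECs (0.60, adjusted p = 0.000788). Itgax and Fcgr1 reached the filter of 1 FPKM in implanted libraries only. Their calls in this paragraph are therefore no independent support for a difference. Other cells of the tissue moved as well: the 6 epithelial genes summed to 345 to 494 FPKM in implanted and 838 to 905 FPKM in MMTV-PyMT libraries after PBS, and the 7 mural and fibroblast genes to 386 to 398 FPKM in implanted and 820 (819.9) to 929 FPKM in normal libraries. The part of these cells in the class II differences was not tested. In bulk RNA, a change in the share of a cell type and a change in RNA per cell cannot be told apart.

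The proportions of the class II transcripts to one another also set the implanted tumours apart. The FPKM ratio of H2-Ab1 to its partner H2-Aa was 1.19 ± 0.0564 in implanted libraries (SD, n = 6, range 1.13 to 1.25). In the 12 other libraries the ratio was 0.782 ± 0.154 with a range from 0.586 to 1.01. Which chain is in excess depends on the lengths behind FPKM, 3798 exon bases for H2-Aa and 2568 for H2-Ab1. In reads H2-Aa exceeded H2-Ab1 in every library, for example by 2588 to 2024 in implanted PBS 1. The ratio of Cd74 to H2-Aa was 7.21 ± 1.21 in implanted libraries (5.16 to 8.86) and 4.06 ± 0.436 in the others (3.33 to 4.72). Neither ratio overlapped between implanted and other libraries, and since both are ratios within a library they do not depend on its scaling. The ratio of H2-Eb1 to H2-Aa did overlap, at 0.0167 to 0.0408 against 0.0251 to 0.121. The FPKM ratio of H2-DMb1 to H2-DMa was 1.88 to 2.11 in MMTV-PyMT tumours after PBS, above every other library (0.342 to 1.31). It rests on 32, 41 and 34 reads of H2-DMb1 and on 35, 42 and 33 reads of H2-DMa. Its level again depends on length, 1681 exon bases for H2-DMb1 and 3448 for H2-DMa, so it shows no excess of either chain. The groups behind these ratios were set side by side after the values had been seen, and the ratios carry no test.

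**Figure D4:**
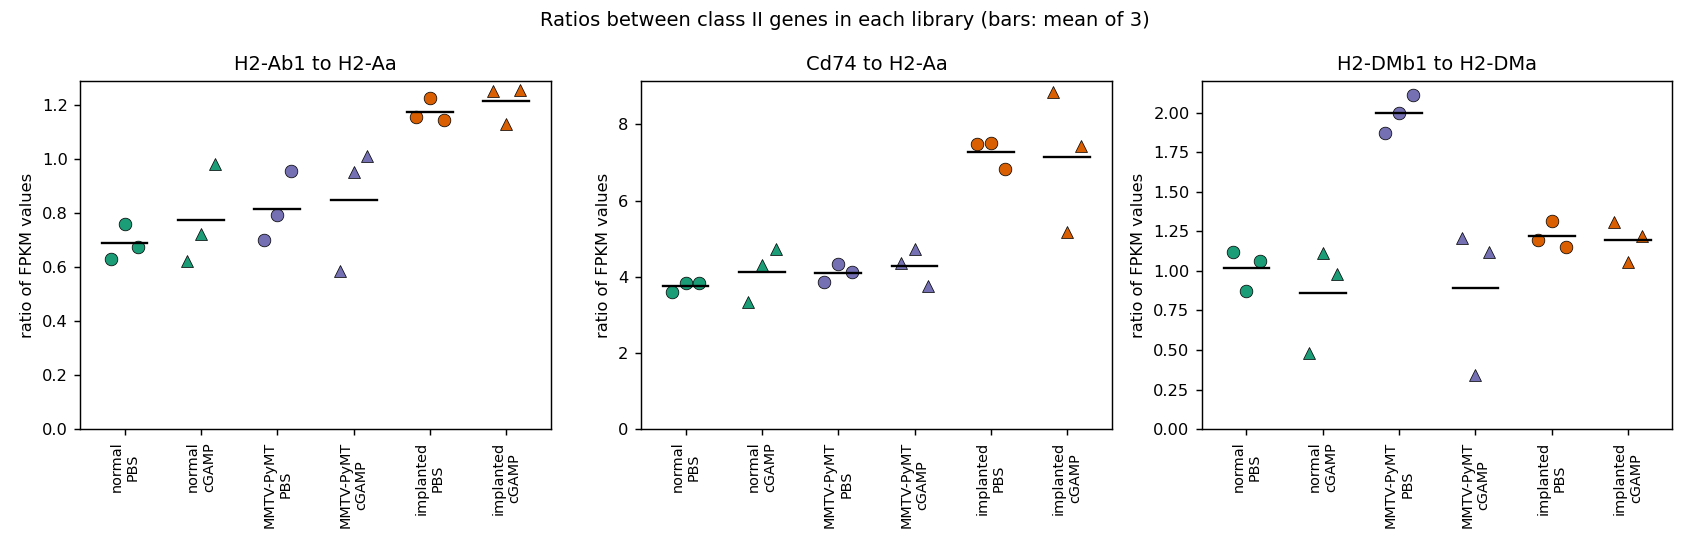
Ratios of FPKM within each library for H2-Ab1 to H2-Aa, Cd74 to H2-Aa and H2-DMb1 to H2-DMa, by tissue and treatment. The implanted libraries lie highest for the ratios to H2-Aa (1.13 to 1.25 and 5.16 to 8.86), and the 3 MMTV-PyMT PBS libraries lie highest for H2-DMb1 to H2-DMa (1.88 to 2.11).

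The response to cGAMP at 3 h was compared within each tissue. In implanted tumours Ciita was higher after cGAMP in every library than in any after PBS, at 7.74 ± 1.38 against 3.91 ± 0.859 FPKM (SD, n = 3), a log2 change of 0.84 with a 95% interval from 0.38 to 1.29 (limma adjusted p = 0.00606). It was the only one of the 7 to pass, where 20.3% of all tested genes were higher, 18.8% lower and 39.1% changed in either direction. Ciita passed under each of 27 alternatives, with adjusted p from 0.000114 to 0.0447, and without normal cGAMP 1 and implanted cGAMP 2 the change was 0.96 (adjusted p = 0.000114). Dexi, its overlapping neighbour, had a log2 change of −0.21 (adjusted p = 0.137).

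The structural class II genes did not pass in implanted tumours, with wide intervals. Cd74 had a log2 change of 0.76 with an interval from −0.31 to 1.82 (adjusted p = 0.251), H2-Aa one of 0.81 (−0.37 to 1.99) and H2-Ab1 one of 0.85 (−0.16 to 1.87), so that neither no change nor a rise as large as that of Ciita lay outside the intervals. H2-DMa was at 0.48 (0.01 to 0.94, adjusted p = 0.0967) and H2-DMb1 at 0.45 (0.02 to 0.88, adjusted p = 0.0895), and H2-Eb1 was at 0.09, a value that turned to −0.15 when libraries were scaled by total reads. The libraries did not move as 1 block: implanted cGAMP 3 held 7.87 FPKM of Ciita, above all PBS libraries, but 552 FPKM of Cd74 and 74.3 FPKM of H2-Aa, both within the range of the PBS libraries. Implanted cGAMP 2, the Ptprc-rich library, held the most H2-Aa and H2-Ab1 and the least Ciita of the 3. Leaving out 1 library at a time raised the number that passed to 3 without implanted cGAMP 3 (Ciita, H2-DMa at 0.71 and H2-DMb1 at 0.67) and without normal cGAMP 1 (Ciita, H2-Ab1 and H2-DMa), and to 2 without MMTV-PyMT cGAMP 2 (Ciita and H2-DMb1). Pan-leukocyte genes summed to 24.8, 25.1 and 129 FPKM after cGAMP against 12.1 to 23.2 FPKM after PBS, macrophage genes to 154 to 537 FPKM against 127 to 200 (199.6) FPKM, and dendritic cell genes to 22.9 to 30.4 FPKM against 12.5 to 14.8 FPKM. The dendritic cell genes did not move together. Of the cGAMP libraries, the Ptprc-rich implanted cGAMP 2 held the least Clec9a (7.11 FPKM) and Zbtb46 (6.01 FPKM). It held the most Itgax (9.73 FPKM) and Ccr7 (6.37 FPKM). Clec9a and Zbtb46 were highest in implanted cGAMP 1 (15.4 and 11.6 FPKM). The part of the cells behind these lists in the cGAMP changes of the structural genes was not tested. Brd2, whose exons overlap H2-DMa, rose with cGAMP in implanted tumours (log2 1.34, adjusted p = 2.17e-08).

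In the normal fat pad none of the 7 passed after cGAMP, where 31.9% of all tested genes changed in either direction (13.7% higher, 18.2% lower), and none had an unadjusted p below 0.05. Cd74 had a log2 change of −0.31 (95% interval −1.38 to 0.75), H2-Aa one of −0.38 and H2-Ab1 one of −0.24, and Ciita was at 0.12. These values rest on 1 library. Normal cGAMP 1 held the highest level of all normal libraries for 6 of the 7, H2-DMb1 being the exception, and the other 2 cGAMP libraries held the lowest Cd74 and H2-Aa. Without normal cGAMP 1, Cd74 fell by 1.11 (adjusted p = 0.0273) and H2-Aa fell by 1.27 (adjusted p = 0.0223) on the log2 scale. Without implanted cGAMP 2 as well, H2-Ab1 also fell (by 0.97, adjusted p = 0.0203). All 6 pan-leukocyte genes fell as well in that fit (0 of 6 with all libraries), where 2385 of 13983 tested genes fell. Ptprc fell by 1.29 (adjusted p = 0.0027), at 0.903 and 0.985 FPKM in the remaining cGAMP libraries against 1.98 to 6.31 FPKM after PBS. The part of the pan-leukocyte genes in the fall of class II was not tested. Over all alternatives the adjusted p ran from 0.023 to 0.974 for Cd74.

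In MMTV-PyMT tumours none of the 7 passed after cGAMP, where 12.0% of all tested genes changed in either direction (7.42% higher, 4.57% lower), and 1 of the 7 had an unadjusted p below 0.05. That gene was H2-DMb1, at 0.844 ± 0.474 FPKM after cGAMP and 1.76 ± 0.433 FPKM after PBS (SD, n = 3), with no overlap and a log2 change of −0.61 with a 95% interval from −1.04 to −0.18 (unadjusted p = 0.00864, adjusted p = 0.0637). It rests on few reads, 20, 5 and 18 after cGAMP against 32, 41 and 34 after PBS. Over its alternatives, with adjusted p from 0.02 to 0.321, it passed with a pseudocount of 0.1 (−1.12, adjusted p = 0.048), with scaling by total reads (−0.70, adjusted p = 0.02) and without MMTV-PyMT cGAMP 1, implanted cGAMP 1 or implanted cGAMP 3. The other 6 genes changed by −0.33 to 0.04 on the log2 scale. Ciita in particular was at 0.735, 0.590 and 0.603 FPKM after PBS and at 0.60, 0.640 and 0.746 FPKM after cGAMP.

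Whether the response differed between tissues was tested as an interaction. H2-DMb1 differed between implanted and MMTV-PyMT ECs, with a log2 change of 0.45 in the former and −0.61 in the latter and a difference of 1.06 (95% interval 0.45 to 1.66, adjusted p = 0.0246), where 7.34% of all tested genes had a higher and 3.72% a lower response in implanted ECs (11.1% either way). This call was lost under 7 alternatives, with adjusted p up to 0.0689. The response of Ciita in implanted ECs exceeded that in MMTV-PyMT by 0.82 (adjusted p = 0.102) and that in normal ECs by 0.71 (adjusted p = 0.117), so that its rise in implanted tumours was not shown to be particular to them. Without normal cGAMP 1 and implanted cGAMP 2 these differences were 0.94 (adjusted p = 0.00554) and 1.17 (adjusted p = 0.00121), and Cd74 (1.67, adjusted p = 0.0244), H2-Aa (1.66, 0.0145) and H2-Ab1 (1.46, 0.0214) then differed between implanted and normal ECs too. With all libraries, none of the 7 differed in response between implanted and normal ECs, where 12.5% of all tested genes had a higher and 6.09% a lower response in implanted ECs (18.6% either way) and 1 of the 7, Ciita, had an unadjusted p below 0.05 (0.0329). None differed between MMTV-PyMT and normal ECs, where 8.37% of all tested genes differed in either direction (5.48% higher, 2.9% lower) and none of the 7 had an unadjusted p below 0.05.

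Interferon-γ acts through the kinases Jak1 and Jak2, and Irf1 takes part in turning on Ciita. Of 8 genes of this route, 5 rose with cGAMP in the normal fat pad, 4 in MMTV-PyMT tumours and 6 in implanted tumours, where 13.7%, 7.42% and 20.3% of all tested genes rose. Irf1 rose by 1.98, 2.53 and 1.53 on the log2 scale in normal, MMTV-PyMT and implanted ECs. Socs1, the feedback inhibitor of the Jak kinases, rose by 2.43, 2.71 and 2.60. The response of Irf1 was smaller in implanted than in MMTV-PyMT ECs (difference −1.0, adjusted p = 0.00232), whereas those of Jak1 (0.59, adjusted p = 0.00942), Jak2 (0.90, adjusted p = 0.00918) and Usf1 (0.63, adjusted p = 0.00786) were larger. After PBS, Irf1 was higher in implanted than in MMTV-PyMT ECs (1.06).

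The DNA-binding partners of Ciita showed no common direction. Of 6 such genes, none was higher and 3 were lower in implanted than in normal ECs after PBS (Rfxap −0.70, Creb1 −0.60, Nfyb −0.35), where 25.0% of all tested genes were higher and 23.6% lower. Against MMTV-PyMT ECs, Rfxank was higher (0.29), and Rfxap (−0.41) and Nfyc (−0.58) were lower. Rfx5, the subunit that holds the RFX complex on the X box, rose with cGAMP in all 3 tissues, by 0.49 in normal ECs and by 0.41 and 1.21 in MMTV-PyMT and implanted ECs, and its response was larger in implanted than in MMTV-PyMT (difference 0.81, adjusted p = 0.000918) and normal ECs (0.72, adjusted p = 0.00113). Rfxank fell with cGAMP in normal (by 0.61) and implanted ECs (by 0.42). Of the 6, 1 rose and 3 fell in normal ECs, where 13.7% of all tested genes rose and 18.2% fell. In MMTV-PyMT ECs 2 rose and 0 fell (7.42% and 4.57%), and in implanted ECs 1 rose and 1 fell (20.3% and 18.8%). In normal ECs mean Rfxap went from 5.59 to 3.65 FPKM and Creb1 from 9.08 to 6.35 FPKM. In MMTV-PyMT ECs mean Nfyb went from 3.29 to 4.54 FPKM. Nfya was not analysed here.

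Class I genes stood beside class II as the other arm of antigen presentation, with Nlrc5 as their coactivator in place of Ciita. All 7 class I genes (H2-K1, H2-D1, B2m, Tap1, Tap2, Tapbp and Nlrc5) were higher in implanted than in normal ECs after PBS, with a median log2 difference of 1.72, and than in MMTV-PyMT ECs, with a median of 2.23, where 25.0% and 20.8% of all tested genes were higher. With cGAMP, 5 rose in the normal fat pad and 7 in both tumours, where 13.7% of all tested genes rose in the normal fat pad, 7.42% in MMTV-PyMT and 20.3% in implanted tumours. Nlrc5 rose from 0.794 ± 0.110 to 10.1 ± 3.23 FPKM in MMTV-PyMT ECs (SD, n = 3, log2 change 2.59), where Ciita stayed at 0.643 ± 0.0801 and 0.662 ± 0.0753 FPKM. In the normal fat pad Nlrc5 rose by 2.03 and in implanted tumours by 2.29 on the log2 scale, and its response did not pass the test for a difference between any pair of tissues (adjusted p from 0.169 to 0.504).

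**Figure D5:**
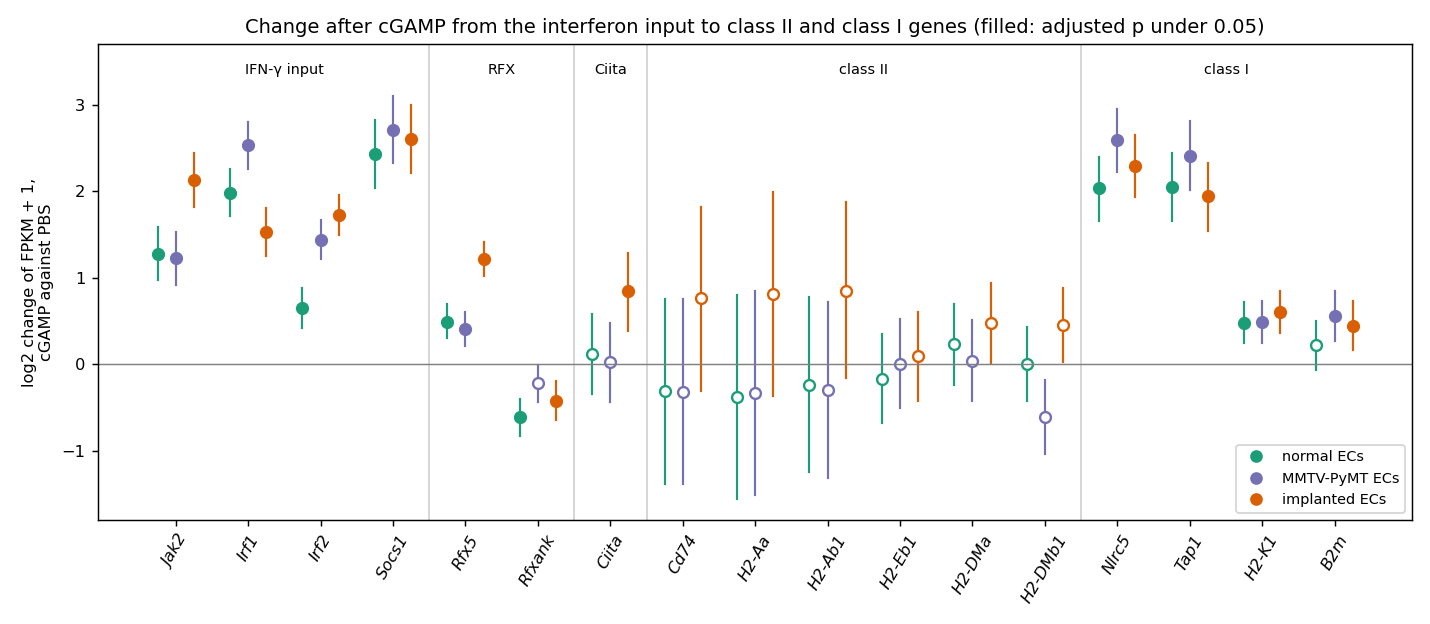
Change in log2(FPKM + 1) with cGAMP in normal, MMTV-PyMT and implanted ECs for the interferon-γ route, the RFX subunits, Ciita, the 6 structural class II genes and class I genes. Irf1 (1.98, 2.53 and 1.53) and Nlrc5 (2.03, 2.59 and 2.29) lie far above 0 in all 3 tissues, whereas Ciita passed only in implanted ECs (0.84).

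Other parts of the class II pathway were covered in part, with 7 of 12 listed genes in the table. Cathepsin S (Ctss), which trims the invariant chain, was higher in implanted than in normal ECs after PBS (log2 1.72, adjusted p = 0.0177), and like the 7 genes it lay higher in all 6 implanted libraries (20.5 to 240.5 FPKM) than in the 12 others (3.86 to 20.2 FPKM), by a narrow margin. The protease Lgmn was higher than in both other tissues (0.42 and 0.53). H2-DMb2, the second H2-DM beta chain, was higher than in MMTV-PyMT ECs (1.68, adjusted p = 0.00183) and did not pass against normal ECs (0.63, adjusted p = 0.177). It was also lower in MMTV-PyMT than in normal ECs (−1.05, adjusted p = 0.0252), where H2-DMb1 was at 0.33 and did not pass. Its cGAMP change in MMTV-PyMT ECs was −0.10 (adjusted p = 0.906), against −0.61 for H2-DMb1. The cathepsin Ctsl (−0.37) and the thiol reductase Ifi30 (−0.71) were lower in implanted than in MMTV-PyMT ECs. With cGAMP, Sppl2a, an intramembrane protease that clears the remnant of Cd74, rose in all 3 tissues (0.57 in normal fat pad, 0.44 and 0.94 in MMTV-PyMT and implanted tumours). H2-Ob, H2-Eb2, March1 and March8 were not analysed here.

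Of the co-stimulatory and co-inhibitory molecules that accompany class II on antigen-presenting cells, the receptor Cd40 was higher in implanted than in normal (1.54) and MMTV-PyMT ECs (1.17) after PBS, and Cd274, which encodes the inhibitory ligand PD-L1, was higher than in both (0.73 and 2.44), while Icosl was lower than in normal ECs (−1.89). With cGAMP, Cd274 rose in all 3 tissues (3.75 in normal fat pad, 5.09 and 4.44 in MMTV-PyMT and implanted tumours). Cd40, through which helper T cells activate antigen-presenting cells, rose by 3.37 in implanted and 1.81 in MMTV-PyMT ECs. Its response was larger in implanted than in MMTV-PyMT (difference 1.57, adjusted p = 0.00633) and normal ECs (2.77, adjusted p = 4.83e-05). All 4 tested genes of this list rose with cGAMP in implanted tumours, where 20.3% of all tested genes rose, among them Icosl (0.44). Cd86 reached the filter of 1 FPKM only through cGAMP libraries (normal cGAMP 1, implanted cGAMP 1 and implanted cGAMP 2). It is therefore no independent support for this count. Cd86, a ligand of CD28 that leukocytes also express, was at 0.263, 0.0925 and 0.498 FPKM after PBS and at 1.31, 6.27 and 0.891 FPKM after cGAMP, the highest being the Ptprc-rich library. Its log2 change was 1.31 (adjusted p = 0.0131) with all libraries and 0.71 (adjusted p = 0.0021) without normal cGAMP 1 and implanted cGAMP 2.

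The pattern of the members over the 18 libraries was compared as the root mean square difference of their log2(FPKM + 1) values after removing each gene's mean. The added 1 flattens genes near or below 1 FPKM, so this measure also sets scarce members apart from abundant ones. Cd74 and H2-Ab1 were the closest pair of members (0.273), followed by H2-DMa with Ciita (0.306), H2-DMa with H2-DMb1 (0.322) and H2-Aa with H2-Ab1 (0.343), and Cd74 and H2-Eb1 were the farthest apart (1.46). The genes nearest to the mean of the 6 structural members were Tnfrsf9 (0.461), Cxcr4 (0.488), Gm8909 (0.532), Slc16a3 (0.533) and the class I gene H2-Q7 (0.539). Those nearest to Ciita were H2-T-ps (0.253), Gm8909 (0.263) and H2-T23 (0.294), class I-like genes of the MHC whose reads can be shared among near-identical copies, so their levels are uncertain.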

How the data were processed

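RNA of sorted ECs was sequenced from NEBNext Ultra II Directional libraries. The authors aligned reads to mm10 with STAR 2.7 and counted them per gene with HTSeq, and they deposited FPKM values per gene and library. Whether counting used strand was not stated. Libraries were grouped by their labels, and columns without a tissue name were taken as normal fat pad. The members and gene lists were chosen with earlier results of these data known.

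Genes with at least 1 FPKM in at least 3 of 18 libraries were kept (13983 of 16248), log2(FPKM + 1) was fitted over all 6 groups with limma 3.58.1 (R 4.3.3, empirical Bayes with trend, two-sided), and p was adjusted by Benjamini-Hochberg over all kept genes in each of 9 comparisons. Named genes were the 7 members, Ptprc and Lyz2, the fixed lists, and the nearest patterns. The deposited FPKM of 98.5% of 16018 genes with a known length gave whole reads (within 0.05 reads), and voom on these reads was an alternative. Reads carried no molecular identifiers. No pair of replicates agreed within sampling noise (chi-square per gene of 4.11 to 31.8). The study gives 3 mice per group from 3 independent experiments, and which library came from which experiment was not stated, so experiment could not enter the fit. The fit was tested on simulated data. Alternatives were other pseudocounts, filters, scalings and fits, a replicate block, and leaving out each library. Leaving out normal cGAMP 1 and implanted cGAMP 2 was added after seeing the data. Some genes of the lists are not reported here.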

Additional observations from a re-analysis of the deposited data

Results flagged for a closer look

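The response of H2-DMb1, the beta chain of the peptide exchanger H2-DM, to cGAMP differed between the tumours in a test of the difference itself. The log2 change was 0.45 in implanted and −0.61 in MMTV-PyMT ECs, a difference of 1.06 ± 0.29 (SE, limma interaction, adjusted p = 0.0246, range over alternatives 0.00542 to 0.0689). In implanted tumours 2 of 3 cGAMP libraries lay above all PBS libraries, and in MMTV-PyMT tumours all 3 lay below them. The MMTV-PyMT values rest on 5 to 41 reads per library. No group of 3 libraries was tested for a single distant sample.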

How the results depend on the processing

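Between implanted and normal and between implanted and MMTV-PyMT ECs after PBS, all 7 genes kept their direction and passed under each alternative that could test them (27 to 28 per gene). Only 3 genes (Cd74, H2-Aa and H2-Ab1) could be tested with a mean of at least 5 FPKM, which leaves the counts there at 3 and 3. In that filter 0 passed for cGAMP in implanted tumours and 0 for the implanted minus MMTV-PyMT response, since Ciita and H2-DMb1 were not among the genes kept, and demanding a log2 change of at least 1 also gave 0 for cGAMP in implanted tumours. Numbers of genes passed otherwise moved as follows, and where no cause is named it was not tested. For cGAMP in MMTV-PyMT tumours 1 passed with a pseudocount of 0.1 and 1 with scaling by total reads, and that scaling left 0 for the implanted minus MMTV-PyMT response. With only the groups compared, 2 passed between MMTV-PyMT and normal ECs. Without normal cGAMP 1 and implanted cGAMP 2, 3 passed for cGAMP in the normal fat pad, 3 between MMTV-PyMT and normal ECs and 4 for the implanted minus normal response. Leaving out 1 library at a time gave 0 to 2 for cGAMP in the normal fat pad, 0 to 1 in MMTV-PyMT and 1 to 3 in implanted tumours, 0 to 4 for the implanted minus normal and 0 to 2 for the implanted minus MMTV-PyMT response, and 0 to 2 for MMTV-PyMT against normal ECs. The libraries behind these are normal cGAMP 1, implanted cGAMP 3 and MMTV-PyMT cGAMP 2 where named above, and for the H2-DMb1 interaction implanted PBS 1 (1.02, adjusted p = 0.0522), implanted cGAMP 1 (0.91, 0.0603), MMTV-PyMT PBS 2 (0.93, 0.0689) and MMTV-PyMT cGAMP 2 (0.82, 0.0561). That interaction was also lost with scaling by total reads (0.86, adjusted p = 0.0557), with only the groups compared (1.06, 0.0553) and without the 2 Ptprc-rich libraries (0.98, 0.0567).

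Signs turned only in values that had not passed. With scaling by total reads, H2-Eb1 was at −0.04, H2-DMa at −0.02 and Ciita at −0.04 for cGAMP in MMTV-PyMT, H2-DMb1 at 0.0 in normal and H2-Eb1 at −0.15 in implanted ECs. In the same scaling the response difference was −0.06 for H2-Aa (MMTV-PyMT minus normal), −0.05 for H2-DMa (implanted minus normal) and −0.11 for H2-Eb1 (implanted minus MMTV-PyMT). With quantile normalization, H2-Eb1 was at −0.1, H2-DMa at −0.03 and Ciita at −0.07 for cGAMP in MMTV-PyMT, H2-DMb1 at −0.05 in normal ECs, and Ciita at 0.07 between MMTV-PyMT and normal ECs. With voom, the response difference of Cd74 was 0.0 (MMTV-PyMT minus normal) and that of H2-Eb1 −0.09 (implanted minus MMTV-PyMT). Without the 2 Ptprc-rich libraries, H2-DMa was at −0.07, H2-DMb1 at −0.05 and Ciita at −0.21 for cGAMP in normal and H2-Eb1 at −0.06 in implanted ECs, and MMTV-PyMT minus normal was 0.79 for Cd74, 0.68 for H2-Ab1, 0.11 for H2-DMa and 0.23 for Ciita, and implanted minus MMTV-PyMT was −0.06 for H2-Eb1.

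Leaving out 1 library at a time, the cGAMP change in normal ECs ranged from −1.11 to 0.1 for Cd74, −1.27 to 0.08 for H2-Aa, −0.97 to 0.21 for H2-Ab1, −0.47 to 0.02 for H2-Eb1, −0.07 to 0.43 for H2-DMa, −0.12 to 0.11 for H2-DMb1 and −0.21 to 0.33 for Ciita. In MMTV-PyMT ECs it ranged from −0.1 to 0.16 for H2-Eb1, 0.0 to 0.13 for H2-DMa and −0.02 to 0.06 for Ciita, and in implanted ECs from −0.06 to 0.29 for H2-Eb1. MMTV-PyMT minus normal ranged from −0.42 to 0.79 for Cd74, −0.4 to 0.94 for H2-Aa, −0.51 to 0.68 for H2-Ab1, −0.02 to 0.47 for H2-Eb1, −0.39 to 0.11 for H2-DMa and −0.31 to 0.23 for Ciita, and implanted minus MMTV-PyMT from −0.08 to 0.29 for H2-Eb1.

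Scaling by total reads moved the median of all genes to −0.248 for cGAMP in implanted ECs and −0.137 between implanted and normal ECs, and the share of calls that were higher from 52.0% to 22.0% and from 51.4% to 33.7%. The deviations of same-numbered libraries correlated weakly and with mixed sign (from −0.291 to 0.263). Such correlations cannot show whether the numbers mark shared experiments, so pairing by number is not known. The replicate block, with 1 gene passed for cGAMP in implanted ECs and 7 between implanted and normal ECs, changed no number of genes passed. Depth limits H2-Eb1 most, with 4 to 30 reads in libraries outside the implanted tumours.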
